A study of Rattus norvegicus with 12 samples.

Results

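The activator protein 1 (AP-1) family was followed in hippocampal RNA of blast-exposed rats through 7 of its genes: Fos, Fosb and Fosl2 of the Fos family, Jun, Junb and Jund of the Jun family, and Atf3. They were taken by symbol from a table of 17494 genes. The genes were chosen by family name, with the log2 fold changes and p-values of boldine against control in these same libraries already known, so their treatment differences are described here and not tested. All 12 rats were male Long Evans hooded rats, labelled as wild type, that had received 3 low-level blasts at 10 weeks of age and lived for 29 weeks after blast. A group of 6 was fed boldine, an alkaloid of the boldo tree, mixed into the chow at 500 mg/kg (blast-boldine), and the other 6 were given plain chow (blast-controls). Boldine was started after the blasts and given until sacrifice. The study's design also had object recognition tests and fear conditioning with tones and foot shocks in the weeks before sacrifice. The part of that testing in the levels of these genes was not tested. Blast is common to both groups and rats without blast were not analysed here, so the comparison is of boldine on a background of blast. Each library came from 1 rat and holds bulk tissue, in which fewer cells of a type and less RNA per cell cannot be told apart.

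AP-1 proteins are leucine zipper transcription factors that bind DNA as dimers. Fos proteins need a Jun partner to form a stable dimer, while Jun proteins can also pair among themselves, and Atf3 can pair with Jun proteins or with itself. Fos, Fosb and Junb are immediate early genes that neurons of the hippocampus switch on briefly after strong activity, Jund is present in most cells without stimulation, and Atf3 is induced by stress and axon injury. Fosb also gives a shortened splice product, ΔFosB, which is long-lived and accumulates with repeated stimulation; counts per gene add both products together.

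The count totals of 11 libraries lay between 10148474 and 40850106. The library of blast-control rat 6 held 74008 counts, so that 1 count was worth 15.8 CPM (a count divided by the TMM-adjusted size of its library) there and at most 0.102 CPM in any other library. That library held 8 counts of Jun, 5 of Jund, 2 of Junb, 1 each of Fos and Fosl2, and none of Fosb or Atf3. Taking 3 counts as the smallest detected value, a count of 0 in rat 6 allows up to 47.5 CPM, which is above every Fosb and Atf3 value of the other rats; these limits cover counting error only. Values are therefore given with and without rat 6. The rats were also placed in a pair of inferred library sets, A (rats 1, 7 and 9 of the blast-controls and 20, 32 and 35 of blast-boldine) and B (rats 4, 5, 6, 12, 17 and 19). This split is not a batch the labels state. The suffixes of the library names fit 4 assignments, and the one that took up most variance of the first principal component was kept. It held 95.1% of that variance over 11 libraries against 1.53% for treatment. Since the split was chosen by that share, the share is no evidence for it. Fits with library set as a term rest on this inferred grouping. The tissue is brain by the labels and hippocampus by the study's methods. The 5 markers of pyramidal neurons of the hippocampal CA fields summed to a median of 1048 CPM in blast-boldine and 1164 CPM in blast-controls without rat 6, and the 4 markers of dentate granule neurons in the table to 276 and 269 CPM.

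The genes lie apart from each other on the genome. In mRatBN7.2, to which the reads were aligned, Fos (chr6:105121170-105124036) and Fosl2 (chr6:24302345-24319157) share chromosome 6, Fosb is at chr1:78954312-78961172, Jun at chr5:109894176-109897268, Junb at chr19:23176265-23178051, Jund at chr16:18734121-18735799 and Atf3 at chr13:102751319-102764625. Jun, Junb and Jund are each a single exon, as is usual for Jun genes, while the other 4 genes have 4 distinct exons each. No member shared annotated exon bases with another gene of the table on either strand. Whether reads from unannotated transcripts were counted in them was not tested. Promoter sequences from RefSeq on a later build, GRCr8, matched 4 of the 7 members (Fosb, Fosl2, Junb and Jund). The 250 bases before the start of transcription are shown for 3 of them, 1 from the Fos family and both Jun genes, to set the motif-bearing Jun promoters beside one with none of the letters searched. Capitals mark matches to the motifs named below, read 5′ to 3′ along the gene.
Fosb (GRCr8, chr1:88089185-88089434, minus strand): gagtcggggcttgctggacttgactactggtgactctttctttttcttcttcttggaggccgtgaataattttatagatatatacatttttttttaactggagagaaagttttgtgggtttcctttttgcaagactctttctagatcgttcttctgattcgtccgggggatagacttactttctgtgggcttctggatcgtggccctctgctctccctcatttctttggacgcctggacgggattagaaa
Junb (GRCr8, chr19:40080876-40081125, plus strand): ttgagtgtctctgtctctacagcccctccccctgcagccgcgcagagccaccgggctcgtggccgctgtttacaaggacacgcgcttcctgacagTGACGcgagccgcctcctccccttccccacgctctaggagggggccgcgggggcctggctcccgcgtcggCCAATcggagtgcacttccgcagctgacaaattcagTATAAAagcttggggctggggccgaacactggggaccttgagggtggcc
Jund (GRCr8, chr16:18769772-18770021, minus strand): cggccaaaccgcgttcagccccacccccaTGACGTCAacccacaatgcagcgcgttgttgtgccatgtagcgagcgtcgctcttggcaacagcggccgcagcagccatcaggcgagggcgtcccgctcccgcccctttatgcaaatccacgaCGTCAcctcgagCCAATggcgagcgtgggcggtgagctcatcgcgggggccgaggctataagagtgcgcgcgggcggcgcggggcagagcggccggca

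The letters searched on both strands were the cyclic AMP response element TGACGTCA, its shorter form TGACG, the AP-1 element TGAGTCA, the CCAAT box and the CArG box of serum response factor, and TATAAA on the given strand alone. Jund held TGACGTCA at bases -221 to -214 from its start, a match found in 1.59% of 33469 rat promoters of the same length. The shorter form is contained in it and was found again in Jund at -98 to -94 on the opposite strand, and in Junb at -155 to -151, against 18.2% of all promoters. A CCAAT box lay at -86 to -82 in Jund and at -85 to -81 in Junb (34% of promoters), and TATAAA at -49 to -44 in Junb (8.06%). Neither the AP-1 element (4.05%) nor the CArG box (1.5%) was found in any of the 4 promoters, and Fosb and Fosl2 held none of the letters searched. A match describes the letters of these windows and not a bound site.

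Levels of different genes were compared per unit of length, as TPM (counts divided by gene length and then scaled to the same total in each library), over the 11 libraries other than rat 6. Jund, the constitutive Jun gene, had the highest level with 158 ± 33.5 TPM (mean ± SD, n = 11), and Jun, the founding member of its family, followed with 105 ± 12.3 TPM. Fosl2, a late Fos-family member also called Fra-2, reached 71.6 ± 11.6 TPM and Junb 65.8 ± 16.1 TPM. Fos stood at 20.4 ± 9.25 TPM, Fosb at 5.86 ± 1.64 TPM and Atf3 at 0.977 ± 0.405 TPM. Among the 12529 genes tested without rat 6, Jund lay at the percentile 87.7 of mean TPM and Atf3 at the percentile 2.17.

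Jund stood above Jun, Jun above both Fosl2 and Junb, and those above Fos, Fosb and Atf3 in that order in 11 of 11 libraries. The exception was the order of Fosl2 and Junb, whose levels did not differ beyond their spread: Fosl2 was the higher in 7 of 11 libraries. That order differed between the library sets, with Fosl2 above Junb in 2 of 6 libraries of set A and in 5 of 5 of set B. The gene model behind the Fosl2 length has 981 bases, the shortest of the 7 and a multiple of 3, and the length of Fosb, the longest, has 3251 bases; whether the Fosl2 model leaves out untranslated exon sequence was not determined, and TPM of a short model depends on that length.

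**Figure D1:**
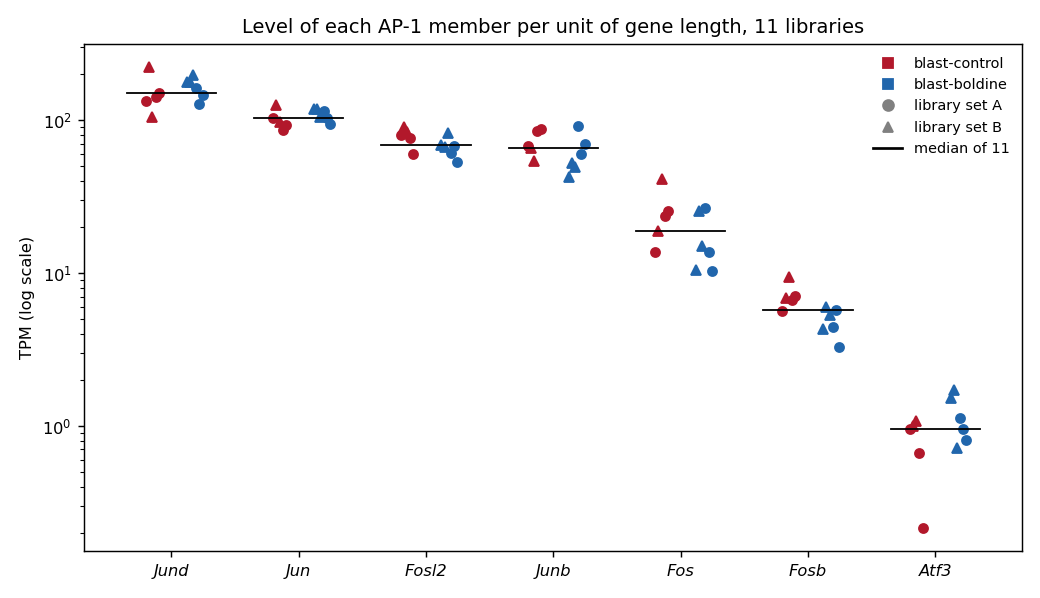
Level of each AP-1 gene in TPM (log scale) in the 11 libraries other than blast-control rat 6, coloured by treatment and shaped by library set, with a line at the median of the 11. The medians run from 150.5 TPM for Jund to 0.958 TPM for Atf3, and the points of Fosl2 and Junb cover much the same range.

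Fosb, which encodes FosB and ΔFosB, had the largest fitted difference relative to its SE of the 7 genes. In blast-boldine it ranged from 4.13 to 7.84 CPM with a median of 6.33, and in blast-controls it stood at 6.63 CPM in rat 1, 9.38 in rat 4, 12.2 in rat 5, 8.12 in rat 7 and 9.42 in rat 9. Of the blast-controls, 4 exceeded every blast-boldine rat, while rat 1 stood inside the blast-boldine range, so the groups overlapped; 6 of 6 blast-boldine values were under the median of the blast-controls. The means were 6.22 ± 1.31 CPM (SD, n = 6) and, without rat 6, 9.15 ± 2.05 CPM (SD, n = 5). The log2 fold change of blast-boldine against blast-controls was -0.53 (SE 0.21, 95% interval -0.997 to -0.07) in edgeR with 12 libraries and -0.56 (SE 0.20, interval -0.99 to -0.12) without rat 6.

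For plain means of log2 CPM, leaving out rat 6 moved Fosb most among these genes. At the mean of the other blast-controls, 0.577 counts of Fosb would fall in a library of its size, and it held 0. The edgeR fit weighs that 0 by its depth, whereas a plain mean of log2 CPM does not: the difference of those means was 0.49 with rat 6 and -0.55 without it. Within library set A the difference of means was -0.52 (3 against 3 rats), and within set B without rat 6 it was -0.66 (3 against 2 rats). With library set as a term and without rat 6 the fitted log2 fold change was -0.58 (SE 0.16).

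Fos, the prototype immediate early gene used as a marker of recent neuronal firing, had the same fitted change and a wider spread. Its values ran from 6.37 to 17.1 CPM with a median of 8.91 in blast-boldine, and were 7.90 CPM in rat 1, 12.4 in rat 4, 26.2 in rat 5, 14.1 in rat 7 and 16.6 in rat 9 of the blast-controls. The groups overlapped over most of their range: rats 17 and 20 of blast-boldine, at 16.3 and 17.1 CPM, lay above 3 and 4 of these 5 blast-controls, and the highest value of all, in blast-control rat 5, came from a rat that was also the highest for Fosb. The log2 fold change was -0.53 (SE 0.33, 95% interval -1.24 to 0.18), and it ranged from -0.72 without blast-boldine rat 20 to -0.26 without blast-control rat 5. Within sets the difference of means was -0.34 in A and, without rat 6, -0.84 in B.

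Fosl2 ranged from 20.2 to 32.2 CPM with a median of 25.8 in blast-boldine. In blast-controls it stood at 28.5 CPM in rat 1, 36.7 in rat 4, 32.8 in rat 5, 28.4 in rat 7 and 24.0 in rat 9. Without rat 6, 5 of 6 blast-boldine values were under the median of the blast-controls, and rat 19 reached into the upper part of the blast-control range. The log2 fold change was -0.20 (SE 0.16, 95% interval -0.54 to 0.14) with 12 libraries and -0.26 (SE 0.09, interval -0.46 to -0.05) with library set as a term and without rat 6. It was -0.12 without blast-control rat 4 and -0.27 without blast-boldine rat 19, the ends of its range when each rat was left out. The difference of means was -0.22 in set A and -0.29 in set B without rat 6.

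The Jun genes had smaller differences than Fos and Fosb, with fitted changes on both sides of 0. Jun, the main partner of Fos, ranged from 114 to 147 CPM with a median of 135 in blast-boldine, and stood at 115 CPM in rat 1, 162 in rat 4, 119 in rat 5, 101 in rat 7 and 118 in rat 9 of the blast-controls. Every blast-boldine value was inside the range of the blast-controls. The fitted log2 fold change was 0.11 (SE 0.13, 95% interval -0.18 to 0.40), with values of 0.05 when blast-control rat 7 was left out and 0.21 when rat 4 was.

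Junb, the immediate early Jun gene, ranged from 30.2 to 65.2 CPM with a median of 39.3 in blast-boldine, and stood at 44.1 CPM in rat 1, 49.2 in rat 4, 38.9 in rat 5, 57.1 in rat 7 and 63.9 in rat 9 of the blast-controls. The blast-boldine group held both the lowest and the highest value, the latter in rat 20, which was also the highest of its group for Fos. The log2 fold change was -0.21 (SE 0.20, 95% interval -0.65 to 0.22) with values of -0.36 when blast-boldine rat 20 was left out, -0.13 when rat 12 was and -0.12 when blast-control rat 9 was. Junb was the only member with a lower mean in library set B than in A, by a log2 difference of -0.46, where the others were 0.25 to 0.57 higher in B; the median size of that difference over 12529 genes was 0.47.

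Jund ranged from 82.1 to 131 CPM with a median of 114 in blast-boldine, and stood at 81.2 CPM in rat 1, 156 in rat 4, 70.4 in rat 5, 90.1 in rat 7 and 104 in rat 9 of the blast-controls. The single high blast-control, rat 4, was also the highest of its group for Jun and Fosl2. The log2 fold change was 0.15 (SE 0.20, 95% interval -0.27 to 0.57), with values of 0.06 when blast-control rat 5 was left out, 0.35 when rat 4 was and 0.23 when blast-boldine rat 32 was. It was 0.09 with library set as a term and without rat 6.

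Atf3, the stress-induced member, had few counts in all rats. It had 7 to 20 counts in the blast-boldine libraries and 2 to 30 in those of the blast-controls other than rat 6, and the 2 counts of rat 9 are under the 3 counts taken as detected. In blast-boldine it ranged from 0.539 to 1.29 CPM with a median of 0.773, and in blast-controls it stood at 0.658 CPM in rat 1, 0.790 in rat 4, 0.819 in rat 5, 0.472 in rat 7 and 0.167 in rat 9. The groups overlapped, with 3 blast-boldine rats above every blast-control. The log2 fold change was 0.54 (SE 0.34, 95% interval -0.20 to 1.28), the largest positive value among the members and the one with the widest interval. It was 0.33 without blast-control rat 9, 0.65 without blast-control rat 5 and 0.28 in limma-voom.

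**Figure D2:**
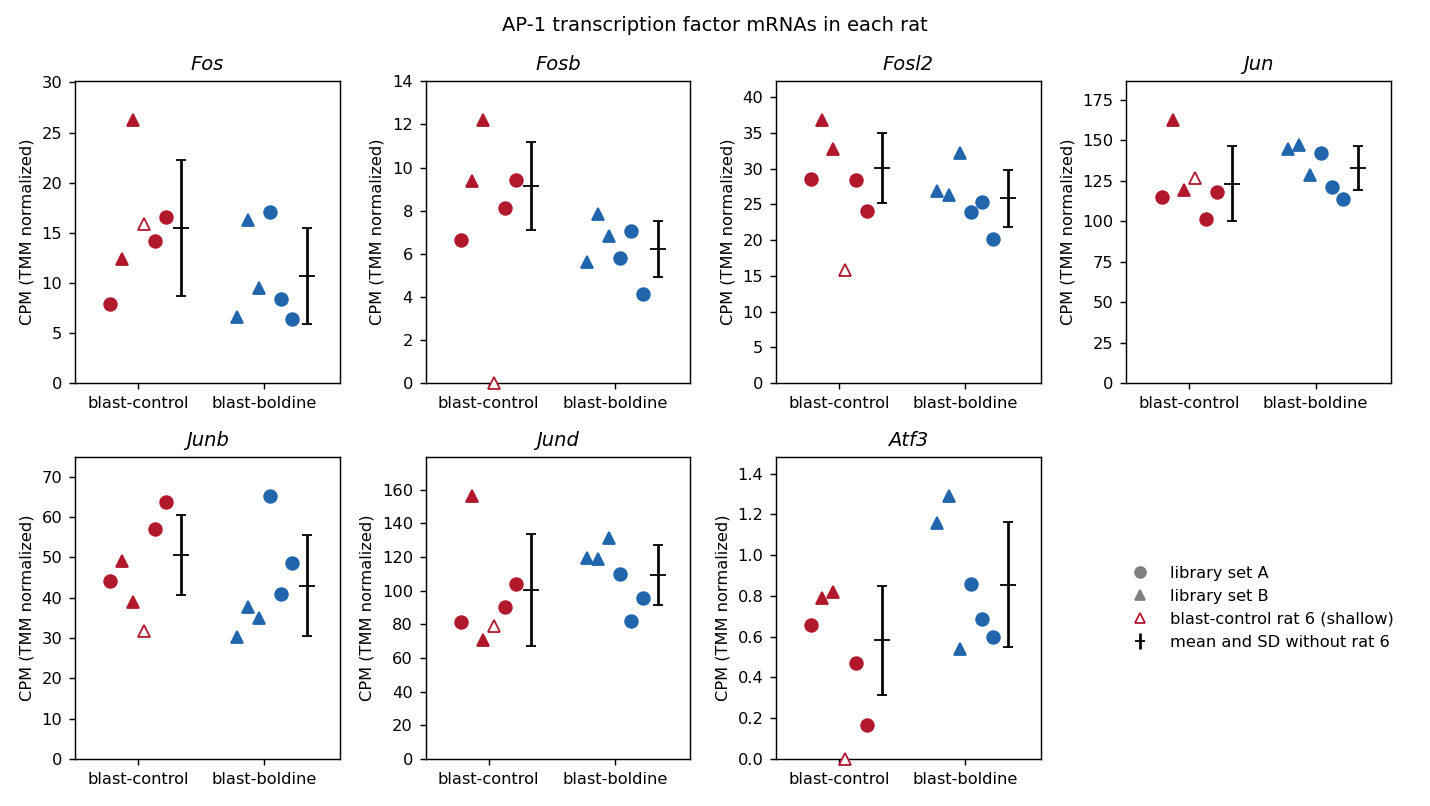
CPM of the 7 AP-1 genes in each rat by treatment, with circles for library set A, triangles for set B, an open triangle for blast-control rat 6 and bars for the mean and SD without rat 6. The blast-boldine values of Fosb end at 7.84 CPM, under 4 of the 5 filled blast-control points, and the groups of every gene overlap.

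Across the whole table, edgeR called 0 of 12325 genes at an adjusted p under 0.05 (0.00%), with a smallest adjusted p of 1, so no member passed; 132 genes had an unadjusted p under 0.05. DESeq2 and limma-voom also called 0 genes after adjustment, with 85 and 115 genes at an unadjusted p under 0.05. All 7 members passed the filter on low counts, and 1, Fosb, had an unadjusted p under 0.05, where 1.07% of all genes tested did, 0.519% in the lower and 0.552% in the higher direction. Nothing is read from that count, since the members were picked with this contrast in view. Without rat 6 it was again Fosb alone (1.40% of 12529 genes, 0.846% lower). With library set as a term it was Fosb and Fosl2, both with 12 libraries (3.85% of genes, 2.31% lower) and without rat 6 (5.35%, 3.54% lower). The count was 0 without blast-control rat 5 (214 of 12487 genes tested had such a p), blast-boldine rat 12 (85 of 12264) or blast-boldine rat 35 (118 of 12310). It was 2 without blast-control rat 1 (87 of 12270), blast-control rat 4 (144 of 12489) or blast-boldine rat 20 (141 of 12308). The groups overlapped for all 7 members. Over all genes, blast-boldine lay wholly below in 0.00811% and wholly above in 0.0730% with 12 libraries, and in 0.0639% and 0.0718% without rat 6. Each member kept the sign of its log2 fold change in every alternative fit that tested it, 18 fits for Atf3 and 20 for each other gene.

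**Figure D3:**
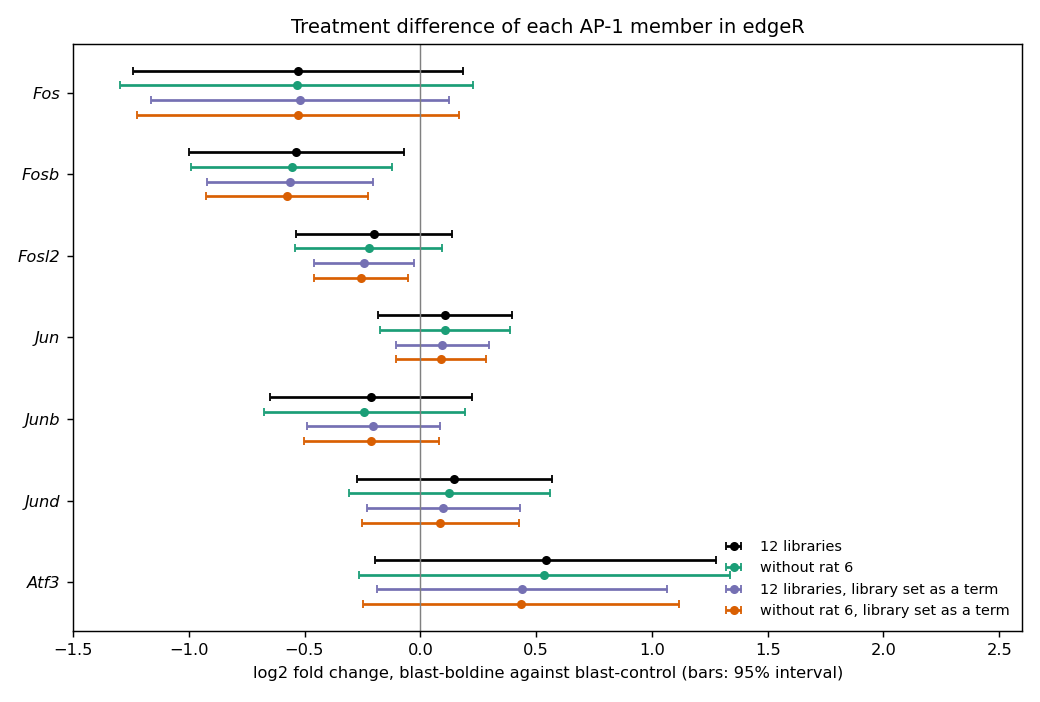
Fitted log2 fold change of each AP-1 gene, blast-boldine against blast-control, with its 95% interval in 4 edgeR fits. The intervals of Fosb lie below 0 in all 4 fits, those of Fosl2 only with library set as a term, and those of the other 5 genes include 0 in all 4.

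The balance between the families was followed as the share of the summed TPM of the 7 genes held by Jun, Junb and Jund. The Jun share was 78.9 ± 2.10% in blast-boldine (SD, n = 6) and 74.3 ± 5.21% in blast-controls without rat 6 (SD, n = 5). It ran from 76.8% to 82.2% in blast-boldine, and in blast-controls from 65.4% in rat 5, the rat with the highest Fos and Fosb, to 78.2% in rat 9. The 2 ranges overlapped, and the difference of means with all 12 libraries lay between 1.70 and 4.65 percentage points when each rat was left out in turn. The summed level of the 7 genes was 423 ± 37.8 TPM in blast-boldine and 433 ± 55.0 TPM in blast-controls without rat 6, a difference smaller than either SD.

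The spread between rats, measured by edgeR as the dispersion beyond counting error within a treatment, is part of the p-values known when the genes were chosen, and is given as a description. Without rat 6 it was largest for Fos, at 0.164, above that of 83.7% of the 12529 genes tested. Atf3 had 0.0869 (percentile 63.7), Junb 0.0633 (51.0), Jund 0.0626 (50.5), Fosb 0.0579 (47.2), Fosl2 0.0387 (28.8) and Jun 0.0329 (20.8). Fos varied more between rats of a treatment than most genes did, and Jun less. With library set as a term, Fos stood at the percentile 97.9 and Jun at 30.0, while Fosb moved to 80.6, Jund to 80.1, Junb to 71.3 and Atf3 to 88.8. The order of Fos above Fosb above Fosl2 was the same in both fits.

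**Figure D4:**
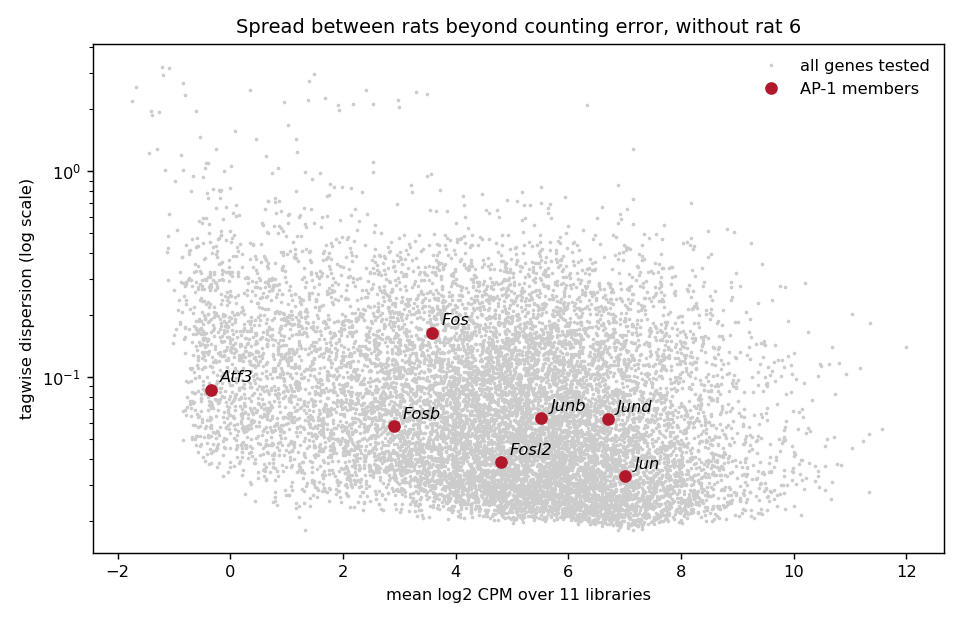
Tagwise dispersion (log scale) against mean log2 CPM over 11 libraries for all 12529 genes tested without rat 6 (grey) and the 7 AP-1 genes (red). Fos, at 0.164, lies in the upper part of the cloud at its level and Jun, at 0.0329, near its lower edge.

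Pairs of members were compared across the 11 rats other than rat 6, as deviations of log2 CPM from the mean of their treatment and library set, with an exact permutation over the 432 assignments of rats within those cells that were enumerated. No pair of the 21 had an adjusted p under 0.05. Fos and Fosb varied together with r = 0.73 (exact permutation p = 0.0556, adjusted 0.583) and rho = 0.72 (exact permutation p = 0.0579, adjusted 0.454), and r was 0.78 without the 2 rats farthest from the median of Fos. Junb and Jund gave r = 0.66 (exact permutation p = 0.0185, adjusted 0.389) and rho = 0.78 (exact permutation p = 0.0278, adjusted 0.454), and r was 0.64 without the 2 rats farthest from the median of Junb. Jun and Jund gave r = 0.70 (exact permutation p = 0.331, adjusted 0.955). Within set A alone, the set with 6 rats, r was 0.59 for Fos and Fosb, 0.97 for Junb and Jund and 0.45 for Jun and Jund, and no value was computed within set B, which has 5 rats without rat 6.

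**Figure D5:**
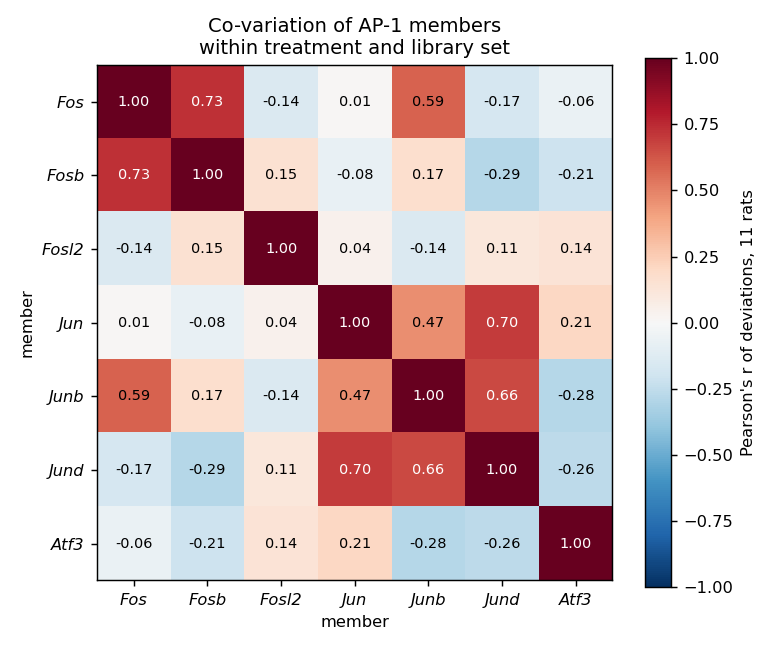
Pearson's r between the deviations of the AP-1 genes from the mean of their treatment and library set, over 11 rats, on a scale from -1 to 1. The 3 highest values join Fos with Fosb (0.73), Jun with Jund (0.70) and Junb with Jund (0.66), and the values of Atf3 with the other members reach 0.21 at most.

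The genes whose deviations were most like those of a member, by Pearson's r over the same 11 rats and among 12529 genes, are given as a description. For Fosb they were Spire1 (r = 0.97), Alas1 (0.93) and Egr2 (0.90), the last of these an activity-induced zinc finger factor. Without removal of treatment and set means, r with Fosb was 0.94 for Egr2 and -0.10 for Spire1. Those values include the treatment difference, which was negative for both Fosb and Egr2, so nothing is read from them. The genes most like Fos were Gipc1 (0.97), the chaperone cofactor Dnajb1 (0.95) and the ribosomal protein gene Rpl12 (0.95). Of the Egr genes, looked up after Egr2 was seen beside Fosb, r with Fos was 0.86 for Egr2, -0.33 for Egr1, -0.61 for Egr3 and -0.25 for Egr4. Those most like Fosl2 were Ldb2 (0.97), the potassium channel gene Kcna2 (0.94) and Itih3 (0.93). For Jun they were Dync1li1 (0.97), Nek6 (0.97) and Aimp2 (0.95), for Junb RGD1308430 (0.96), RGD1562229 (0.96) and Sord (0.95), and for Jund Abhd8 (0.99), Ly6h (0.99) and Cyc1 (0.98). Zscan25 (0.96), Gper1 (0.92) and Nxn (0.92) were most like Atf3.

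The remaining genes around AP-1 were taken from fixed lists, and none of their genes passed an adjusted p of 0.05 in edgeR. Of the 13 other AP-1 proteins listed, 12 were in the table, 8 could be tested and 0 had an unadjusted p under 0.05, with a median log2 fold change of -0.01 against 0.00 over all genes. Jdp2, a Jun dimerization partner that represses AP-1, stood at 0.15 (SE 0.61). Fosl1, Batf and Batf3, the relatives that are low in brain, were left out by the filter, with Maff.

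Upstream of AP-1, the 23 of 26 listed genes in the table for the kinases and factors that switch these genes on (the ERK, JNK and p38 kinases, ribosomal S6 kinases, Srf, the Elk factors and the Creb group) gave 0 genes with an unadjusted p under 0.05 and a median of 0.04. Camk4, a calcium-dependent kinase of neurons, had the lowest value of the list, -0.57 (SE 0.68), but 0.15 (SE 0.52) without rat 6. The 11 negative regulators tested, among them the MAP kinase phosphatases and the AU-rich element binding protein gene Zfp36, gave 0 and a median of -0.09, with Dusp5, a nuclear ERK phosphatase, at -0.55 (SE 0.29). The ribosomal S6 kinase gene Rps6ka1 of the upstream list was lower at an unadjusted p under 0.05 with library set as a term and without rat 6. It was 1 of 23 upstream genes tested in that fit, where 3.54% of all genes were lower at such a p. Nothing is read from it.

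Of 15 genes named as AP-1 targets in neurons, 0 had an unadjusted p under 0.05, and the median was -0.02. Penk, which encodes proenkephalin, stood at 0.22 (SE 0.24) and Bdnf, a neurotrophin, at -0.23 (SE 0.23). Of 16 genes linked to AP-1 after injury, 11 could be tested, with a median of -0.14, and 1 had an unadjusted p under 0.05: Vim, which encodes the intermediate filament vimentin of astrocytes and vascular cells, with a log2 fold change of 0.55 (SE 0.19) and means of 83.9 CPM in blast-boldine and 59.3 CPM in blast-controls without rat 6. Hspb1, a small heat shock protein gene, stood at -0.38 (SE 0.23). The cyclin D1 gene Ccnd1 was lower at an unadjusted p under 0.05 with library set as a term and without rat 6. It was 1 of 11 injury genes tested in that fit, where 3.54% of all genes were lower at such a p. With 12 libraries, the fit of the Vim values, 1.07% of all genes tested had such a p. Nothing is read from these counts.

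The 11 other immediate early genes had a median log2 fold change of -0.21, with 9 of 11 on the negative side. Of these, 3 had an unadjusted p under 0.05: Nr4a1, an orphan nuclear receptor gene, at -0.63 (SE 0.17), Egr4 at -0.75 (SE 0.27) and Egr2 at -1.10 (SE 0.43). Nr4a1 had means of 29.1 CPM in blast-boldine and 43.5 CPM in blast-controls without rat 6. At the other end of the list, Btg2 stood at 0.12 (SE 0.22) and Nr4a3 at 0.04 (SE 0.33). Without rat 6, the count was 4 of 11 with Arc added, where 0.846% of all genes were lower at an unadjusted p under 0.05, and with library set as a term as well it was 6 of 11, where 3.54% were. None of the 11 passed adjustment. The list overlaps with genes already known to have a small unadjusted p in these libraries, so nothing is read from its counts.

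Markers of cells and regions were set beside the treatment difference, all in CPM summed over each list, with the lowest and highest rat in blast-boldine and then in blast-controls without rat 6; no marker in the table was at 0 in a whole group. Microglial markers ranged from 133 to 353 and from 132 to 340. With 12 libraries all 6 had log2 fold changes below 0 (median -0.16) and none had an unadjusted p under 0.05. A shared sign was not particular to microglia. In the same fit all 5 endothelial markers (median 0.23) and all 4 ependymal markers (median 0.37) were above 0, as were 5 of 6 meningeal markers (median 0.57). Markers of astrocytes (2449 to 3664 and 2812 to 3771), oligodendrocytes (2671 to 6653 and 2941 to 6798), endothelial cells (67.9 to 261 and 69.5 to 255), pyramidal neurons (787 to 1199 and 1005 to 1237), dentate granule neurons (236 to 381 and 189.6 to 356) and blood (52.0 to 197 and 61.1 to 232) also had 0 genes at an unadjusted p under 0.05 with 12 libraries. Choroid plexus markers, from a tissue that borders the hippocampus, spanned 10.004 to 1114 and 15.3 to 1139 with 0 such genes. Their medians were 414 in blast-boldine and 15.8 in blast-controls, with means of 494 ± 522 and 367 ± 512 (SD). With 12 libraries 4 of 6 had log2 fold changes above 0 (median 0.27). With library set as a term and without rat 6, all 6 did (median 0.56).

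With 12 libraries, 1.07% of all genes tested had an unadjusted p under 0.05 (0.552% higher, 0.519% lower in blast-boldine), and none passed adjustment. Some regional markers were among them. Of 6 meningeal markers (68.4 to 277 and 48.2 to 230 CPM) it was Slc6a13, which was higher in blast-boldine, and of 4 ependymal markers (19.93 to 40.7 and 19.97 to 38.0 CPM) it was Ccdc153, also higher. Of 3 thalamic markers tested (45.7 to 72.4 and 54.4 to 81.2 CPM) it was Slc17a6, which was lower in blast-boldine. Neocortical markers summed to 191 to 279 CPM (median 212) in blast-boldine and 213 to 276 CPM (median 262) in blast-controls without rat 6, with 0 such genes. With library set as a term and without rat 6, Tmem119 of microglia, Wfs1 of pyramidal neurons and Tbr1 of neocortex were lower and Lum of meninges was higher at an unadjusted p under 0.05 as well. In that fit 5.35% of all genes tested had such a p, 3.54% in the lower direction, and none passed adjustment. The part of these marker values in the values of Fosb and Fos was not tested.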

How the data were processed

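Hippocampal RNA of 12 rats was sequenced by the authors as stranded total RNA libraries after ribosomal RNA depletion. The authors removed duplicates and trimmed reads with HTStream, aligned them with STAR 2.7.11b to mRatBN7.2 and counted them by strand on exons of RefSeq genes with featureCounts (Subread 2.0.1). The deposited values are these counts, not normalized. Groups came from the labels. Counts were tested with edgeR 4.0.16 (R 4.3.3; quasi-likelihood, TMM, filterByExpr at a minimum of 10, treatment as the only term, 12 libraries, two-sided, Benjamini-Hochberg threshold 0.05). The study used DESeq2 with treatment only. CPM were scaled by TMM, log2 CPM had a prior count of 2, and TPM used the deposited gene lengths. The members and gene lists were chosen with earlier results of these data known. Named genes were the members, the 3 genes most like each, and up to 2 genes per direction and pathway list by smallest unadjusted p. Fosl1, Batf, Batf3, Maff, Arc, Egr1, Egr3, Rps6ka1, Ccnd1, Slc6a13, Ccdc153, Slc17a6, Tmem119, Wfs1, Tbr1 and Lum were named after their values were seen. Some genes are not reported here. Each library is 1 rat, so the tests measure the spread between rats; depth is given with the results.

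Alternatives were DESeq2 1.42.0, limma-voom (limma 3.58.1), RLE and upper quartile factors, other filters, library set as a covariate, and each rat left out; DESeq2 without rat 6 was added after the data were seen. Library set was inferred: 4 assignments fit the suffixes, and the one that took up most variance of the first principal component was kept. The fits were tried on simulated counts with larger changes and less dispersion than these data have, and with no library sets. That trial checks the code and cannot show how well changes of the size seen here would be found. Permutations and plots used Python 3.11.15, scipy 1.17.1 and matplotlib 3.10.9. Promoters came from RefSeq (GRCr8).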

Additional observations from a re-analysis of the deposited data

Results flagged for a closer look

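The log2 CPM of Fosb in blast-control rat 6 was -3.07, while the nearest other blast-control stood at 2.75. The gap took up 0.870 of the range of the 6 blast-controls, above Dixon's 95% critical value for a group of 6; chance alone flags about 1 in 20 groups. The value stands for 0 counts in a library of 74008 counts, where 0.577 counts would fall at the mean of the other blast-controls.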

How the results depend on the processing

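The log2 fold changes of the 7 genes kept their sign and the count of genes with an adjusted p under 0.05 stayed at 0 in every alternative that could test them. The number of members with an unadjusted p under 0.05 was 1 (Fosb) with 12 libraries and moved to 2 with library set as a covariate and to 2 with library set as a covariate without rat 6 (Fosb and Fosl2 in both), and to 0 with at least 10 counts in every library, a filter that kept 1729 genes and no member. With each rat left out in turn it ranged from 0 to 2: it was 0 without blast-control rat 5, blast-boldine rat 12 or blast-boldine rat 35, and 2 without blast-control rat 1 (Fos and Fosb), blast-control rat 4 (Fosb and Jund) or blast-boldine rat 20 (Fos and Fosb); the cause was not tested. The fits with a rat left out tested 12264 to 12529 genes. Atf3 could not be tested without blast-boldine rat 12 or 20, since it no longer passed the filter. Genes with an unadjusted p under 0.05 numbered 132 with 12 libraries, 85 with DESeq2, 254 without a filter, 5 with at least 10 counts in every library, 279 with DESeq2 without rat 6, 474 with library set as a covariate and 670 with library set as a covariate without rat 6, and from 85 to 214 with a rat left out; the split into higher and lower was 68 and 64 with 12 libraries, 34 and 81 with limma-voom, and 31 and 54 with DESeq2. With library set as a term the dispersion of every member was lower, for Fos 0.131 against 0.160 and for Fosb 0.0340 against 0.0586. Of the 3 genes most like each member, 0 or 1 remained without removal of group means, and 0 to 2 by Spearman's rank correlation. No paired analysis was possible because the rat numbers of the 2 groups share none. Depth limited Atf3 and all values of rat 6.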
